A study of Caenorhabditis elegans with 2 samples.

Results

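Autosomal exons held 763 of the 5000 genomic regions with the strongest ChIP-seq signal for NHR-237 in C. elegans L4 larvae. They were chosen from the authors' list of 26787 regions, made from the reads of both replicates (the pooled list), of which 22118 are autosomal. The regions were ranked by the authors' signal value, and ranks 1 to 5000 were kept where the summit, the base of highest signal, lay on an autosome in an exon of a protein-coding gene. Summits from 1000 bp upstream to 200 bp downstream of any protein-coding transcript 5′ end were left out, so no summit of the 763 lies in an annotated promoter window, although the regions around the summits can reach into one. They made up 763 of 4042 autosomal regions in those ranks. The 3555 autosomal regions of rank above 5000 that meet the same location rule are the lower-ranked exon regions, and the 2 sets together numbered 4318.

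The study profiled NHR-237 by chromatin immunoprecipitation and sequencing in whole L4 larvae, males and females pooled. The worms were strain OP228, which carries the unc-119(ed3) mutation on chromosome III and the transgene wgIs228, from which NHR-237 is made with GFP and FLAG at its C-terminal end. The 2 biological replicates formed a single group, with nothing to compare it to, so the comparisons here are between regions of the same libraries. An untagged strain was not analysed here, and whether another ChIP would mark the same regions was not tested. Whole larvae mix all tissues, so the cells a region's signal comes from are unknown. The lists give no read counts, and the depth of the libraries is therefore unknown.

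Nuclear hormone receptors are transcription factors with a zinc-finger DNA-binding domain, many of which switch genes in response to a small lipophilic ligand, and the family is greatly expanded in C. elegans. Their binding is usually sought at promoters and enhancers. The 3′ UTR is the part of the last exon after the stop codon. It carries the polyadenylation signal AATAAA near its end, and in the compact worm genome the 3′ ends of neighbouring genes often face each other.

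Many of the strongest exon regions lay at 3′ ends. AATAAA motifs on the strand of the host gene are shown first, for the 6 regions of the highest signal, among those whose sequence could be shown, with the summit in a 3′ UTR and the motif on that strand within 100 bp of the summit. Each line gives 30 bases of the WBcel235 (ce11) RefSeq sequence, written 5′ to 3′ on the host gene's strand, with the motif in capitals.
zip-2 (III, 835779 to 835808, plus strand): ttcattaatcaaAATAAAgtagaaaaatag
T28C6.5 (IV, 8822843 to 8822872, plus strand): tgtcttgagttgAATAAAgctgtttttggt
C07A9.9 (III, 9663291 to 9663320, minus strand): gatcattcaacaAATAAAttattattttat
lin-29 (II, 11917607 to 11917636, minus strand): gctttttcatgcacagtggttaaAATAAAt
hsp-1 (IV, 17281302 to 17281331, plus strand): agaatggtgaacAATAAAaaaattaaaata
col-96 (III, 11705655 to 11705684, minus strand): taatacaatagtAATAAAatagttctgcaa
The lin-29 stretch lies beyond the annotated end of the gene, which is at 11917642 on the minus strand. A motif match is a description of the sequence and shows no binding.

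The second motif shown is GAGAGA, a purine repeat, since over all classes together it was more frequent in the 763 regions than in the lower-ranked ones. In 3′ UTRs it most often stood on the strand opposite to the host gene. Read on the host strand it is then TCTCTC, of which the copy nearest the summit is capitalised in these 3′ UTR stretches of the same build; a further copy in the nhr-46 stretch stays in lower case.
nhr-46 (IV, 5747547 to 5747576, minus strand): catttctctccgTCTCTCactcactcactc
algn-12 (V, 8039381 to 8039410, plus strand): agttcattttgaTCTCTCttttttccttct
W06H8.6 (V, 6221781 to 6221810, minus strand): aatccaacaaccaTCTCTCaatgtgcaacc
Coding-exon regions held it on either strand, as in enpl-1, which encodes an endoplasmic reticulum chaperone of the Hsp90 family, and in ZK112.4. The gene ncl-1, on the plus strand, also lies over the ZK112.4 summit, so the host and the strand of that copy are uncertain.
enpl-1 (IV, 11122174 to 11122203, plus strand): tctccattcgtaGAGAGActcatcgctaag
ZK112.4 (III, 7729735 to 7729764, minus strand): cgtttcctatcgTCTCTCggctcgactcgg

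Summits of the 763 regions lay in a 3′ UTR 243 times, in a coding exon 504 times and in a 5′ UTR 16 times. The 3′ UTR share was 31.8% (exact 95% interval 28.6 to 35.3%), against 16.3% (interval 15.1 to 17.6%) in the lower-ranked exon regions, with 581 of 3555. The coding share was 66.1% (interval 62.6 to 69.4%), against 82.1% (interval 80.8 to 83.4%). These differences exceeded the counting error in a two-sided Fisher's exact test with adjustment over 14 position features (3′ UTR odds ratio 2.39, adjusted p = 3.64e-20, and coding exon odds ratio 0.424, adjusted p = 3.64e-20). The 5′ UTR share was 2.10% against 1.55% and did not pass (odds ratio 1.36, adjusted p = 0.294 in the exact test). All intervals and p-values here cover counting over the regions of 1 pooled list, not the spread between worms, and neighbouring regions are not independent. Of the 14 position features 9 passed (64.3%). Without replicate 1, in the list of replicate 2 alone, the 3′ UTR odds ratio was 1.66 (19.7% against 12.8%, adjusted exact p = 6.41e-06), and without replicate 2 it was 2.17 (30.3% against 16.7%, adjusted exact p = 7.53e-16).

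The 3′ UTR share was highest at the top of the list. It was 51% of exon regions at ranks 1 to 1000 (51 of 100, interval 40.8 to 61.1%), 33.8% at ranks 1001 to 2500 and 26.3% at ranks 2501 to 5000. Further down it was 18.9% at ranks 5001 to 10000, 19.3% at ranks 10001 to 15000, 14.2% at ranks 15001 to 20000 and finally 14.05% at ranks 20001 to 26787. Ranks 1 to 5000 were thus not uniform, with the 3′ UTR regions toward the top. Exon regions of all classes were fewest in the first ranks, with 13.1% of autosomal regions at ranks 1 to 1000 and between 18.5% and 20.8% in the later bins. Over the same bins 3′ UTR summits made up 6.66% of all autosomal regions in the first bin and 2.86% in the last, while coding summits went the other way, with 5.61% in the first bin and 17.2% in the last.

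**Figure D1:**
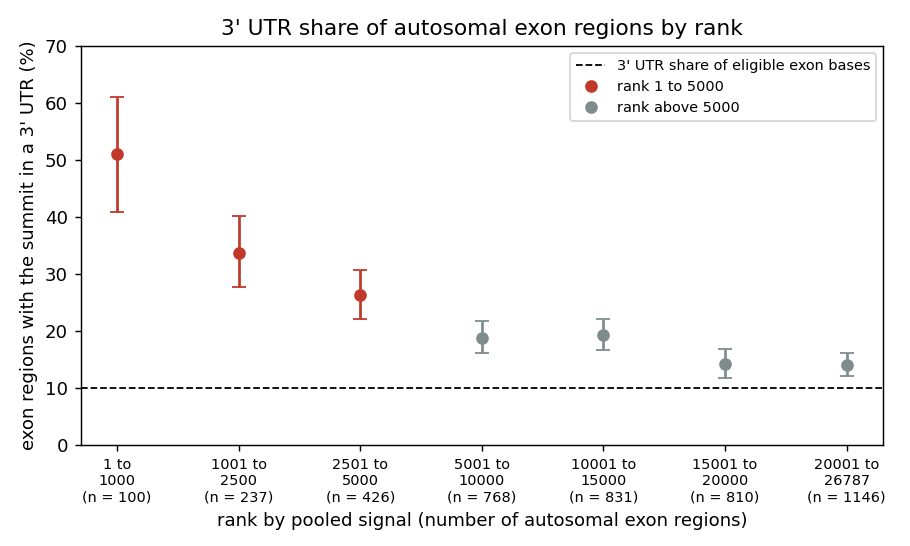
The y axis gives the percentage of autosomal exon regions whose summit lay in a 3′ UTR, and the x axis bins of rank in the pooled list, with the number of exon regions in each. Points are shares with exact 95% intervals, red for ranks 1 to 5000 and grey for higher rank numbers, and the dashed line marks the 10.1% of eligible exon bases that are 3′ UTR; the share is 51% in the first bin and 14.05% in the last.

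Relative to sequence length, 3′ UTRs held several times more of the 763 regions than coding exons did. The exon bases of autosomal protein-coding genes outside promoter windows comprised 16070012 bp of coding sequence, 1831137 bp of 3′ UTR and 235065 bp of 5′ UTR, and 3′ UTRs were 10.1% of the total. Per megabase there were 133 of the 763 regions in 3′ UTRs, 68.1 in 5′ UTRs and 31.4 in coding exons. The lower-ranked exon regions had 317 per megabase in 3′ UTRs, 234 in 5′ UTRs and 182 in coding exons. The densities describe this list and carry no test.

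Other position features, which overlap with the 3′ UTR class, differed as well. The summit lay in the last exon in 46.5% of the 763 regions, against 30.5% of the lower-ranked ones (odds ratio 1.98, adjusted p = 3.43e-16, Fisher's exact test). It lay within 300 bp of the 3′ end of the host transcript in 33.9%, against 23.4% (odds ratio 1.68, adjusted exact p = 1.30e-08). The median distance to that end was 664 bp, against 1095 bp. A distance of at most 50 bp was found in 8.65% of the 763 regions and 4.95% of the lower-ranked ones, and one over 1000 bp in 41.4% and 52.4%. Summits near a splice boundary, within 100 bp, were fewer (45.5% against 54.8%, odds ratio 0.688, adjusted exact p = 7.95e-06), and exons of 500 bp or more were commoner (40.9% against 34.9%, odds ratio 1.29, adjusted exact p = 0.00366). With the rule applied to the list of replicate 2 alone, that is without replicate 1, neither of these 2 passed (odds ratios 0.876 and 1.02, adjusted exact p = 0.142 and 0.912), while last exons and the 300 bp before the 3′ end did. Within single classes the 300 bp feature did not pass, with an odds ratio of 1.31 in coding exons (17.5% against 13.9%, adjusted exact p = 0.0876) and 0.864 in 3′ UTRs (adjusted exact p = 0.768). In coding exons alone the odds ratio turned to 0.915 for long exons and 1.08 for splice boundaries (adjusted exact p = 0.657 for both), and long exons did not pass at a rank threshold of 10000 either (odds ratio 1.11, adjusted exact p = 0.157).

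**Figure D2:**
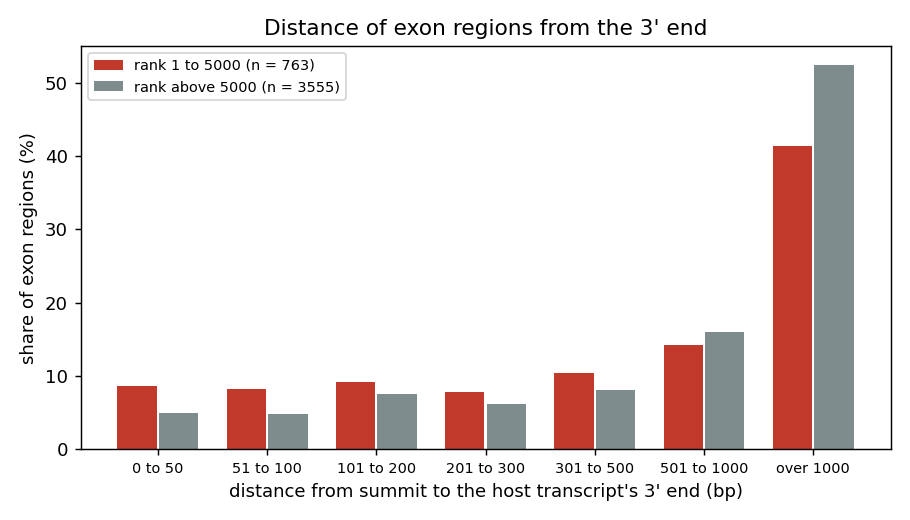
Bars give the percentage of exon regions, red for the 763 regions of rank 1 to 5000 and grey for the 3555 of lower rank, by distance in bp from the summit to the 3′ end of the host transcript. Red bars are taller in each of the bins up to 500 bp, as in the first bin with 8.65% against 4.95%, and shorter over 1000 bp with 41.4% against 52.4%.

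Convergent neighbours and the middle of chromosomes were also commoner over all classes together. A neighbouring gene on the other strand had its 3′ end within 500 bp of the host's 3′ end in 46.9% of the 763 regions and 40.3% of the lower-ranked ones (odds ratio 1.31, adjusted p = 0.00179, Fisher's exact test). Within coding exons alone the shares were 42.3% and 38.03% (odds ratio 1.19, adjusted exact p = 0.137), and within 3′ UTRs alone the odds ratio was 1.29 (adjusted exact p = 0.396), so the call was lost in each class. The middle 50% of the chromosome by length, where conserved and essential worm genes are denser, held 65.4%, against 54.7% (odds ratio 1.57, adjusted exact p = 1.45e-07). A non-coding RNA gene lay within 500 bp of 10.2%, against 7.37% (odds ratio 1.43, adjusted exact p = 0.0147), but this passed in only 6 of 12 alternatives. It did not pass without replicate 2 (odds ratio 1.07, adjusted exact p = 0.764), at a rank threshold of 2500 (1.30, adjusted exact p = 0.218), with a wider promoter window (1.33, adjusted exact p = 0.128), with 1 region per host gene (1.22, adjusted exact p = 0.220) or in either class alone. Features that did not pass were a first-exon summit (4.85% against 4.67%, adjusted exact p = 0.850), a summit up to 1000 bp downstream of a 5′ end of the host gene (25.4% against 28.6%, adjusted exact p = 0.0950), a second protein-coding gene over the summit (5.11% against 3.71%, adjusted exact p = 0.0950) and a host gene of a single exon (0.524% against 0.141%, adjusted exact p = 0.0809).

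**Figure D3:**
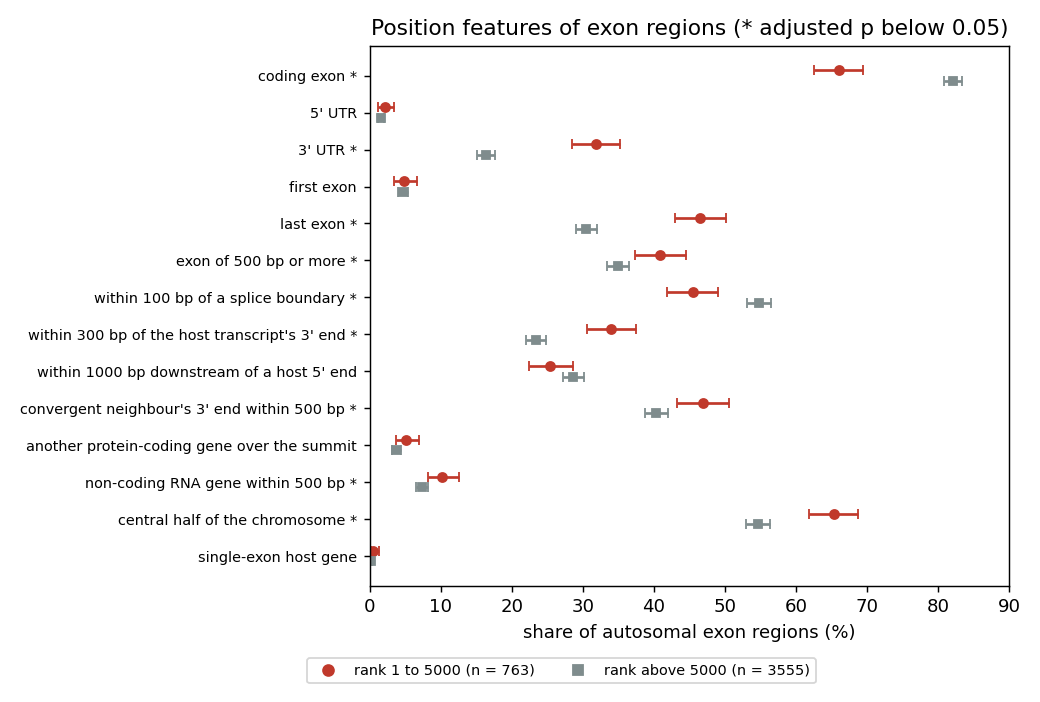
Each row is a position feature, and the x axis gives the percentage of autosomal exon regions that have it, with red points for rank 1 to 5000 (763 regions) and grey squares for lower rank (3555 regions). Bars are exact 95% intervals over regions, and a star marks an adjusted exact p below 0.05, as for 3′ UTR summits with 31.8% against 16.3%.

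Within the 3′ UTR class no feature separated regions of high and low rank past the test. In the 243 3′ UTR regions of rank 1 to 5000 and the 581 of lower rank, the median distance to the 3′ end was 150 and 140 bp, and AATAAA on either strand was found in 57.2% and 56.3%. No position or sequence feature passed the exact test in that class, a setting added after the data were seen. Convergent neighbours stood at 58.0% against 51.8%, and the middle 50% of the chromosome held 64.2% against 55.6%. Within coding exons, the middle of the chromosome held 66.3% of the 504 regions and 54.4% of the 2919 lower-ranked ones, and AATAAA 32.9% against 25.4% (adjusted exact p = 7.35e-06 and 0.00954). Last exons also passed there, with 22.8% against 17.7% (adjusted exact p = 0.0411).

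No autosome held a share of the 763 regions that differed past the test from its share of the lower-ranked exon regions. Chromosome V held 181 (23.7% against 23.2%), III 148 (19.4% against 20.8%), I and II 146 each (19.1%, against 18.1% on I and 19.4% on II) and IV 142 (18.6% against 18.5%). None of the 5 shares passed Fisher's exact test (0% called, adjusted p = 0.920 for each, and 0 of 5 with an unadjusted p under 0.05). In the list of replicate 2 alone (without replicate 1) 2 passed, III with 23.3% against 19.4% and II with 16.8% against 20.4% (adjusted exact p = 0.0350 for both). On each autosome the 3′ UTR share was higher in the 763 regions than in the lower-ranked ones. On I, 34.9% (interval 27.2 to 43.3%) of 146 regions lay in a 3′ UTR, against 17.2% of 645, and on V 24.9% (interval 18.7 to 31.8%) of 181, against 13.5% of 824. By the same rule X held 139 exon regions of rank 1 to 5000, 28.1% in 3′ UTRs (interval 20.8 to 36.3%), against 21.7% of 718 lower-ranked ones. Whether X differs from the autosomes was not tested.

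Around the summit, the sequence was richer in A and T than in the lower-ranked exon regions but, by its median, poorer in them than in autosomal regions at large. AATAAA on either strand occurred in 40.5% (interval 37.0 to 44.1%) of the windows of 100 bp on each side of the 763 summits, against 30.8% of the lower-ranked ones and 39.4% of all 22118 autosomal regions (odds ratio 1.53, adjusted p = 5.24e-06, Fisher's exact test over 17 sequence features). A run of 7 or more A, or T on the other strand, occurred in 31.1% against 23.9% (odds ratio 1.44, adjusted exact p = 0.000355) and in 42.2% of all autosomal regions. GC content of 45% or more was found in 14.9% against 19.5% (odds ratio 0.725, adjusted exact p = 0.0198), and the median GC content was 37.3% against 38.8%, with 35.3% over all autosomal regions. Within 3′ UTRs both medians were 32.8%. The GC call held in 8 of 16 alternatives, and was lost at rank thresholds of 2500 (adjusted exact p = 0.0839) and 10000 (adjusted exact p = 0.268), with 1 region per host gene (adjusted exact p = 0.0878) and with windows of 170 bp to either side (adjusted exact p = 0.0802). GAGAGA occurred in 15.5% (interval 12.97 to 18.2%) against 11.7%, and in 13.2% of all autosomal regions (odds ratio 1.38, adjusted exact p = 0.0223). These 4 of 17 sequence features passed (23.5%). AATAAA passed in 13 of 17 alternatives, and GAGAGA and the run of A in 10 of 17 each. Within single classes GAGAGA did not pass. It stood at 11.7% against 10.7% in coding exons (odds ratio 1.11, adjusted exact p = 0.826). In 3′ UTRs it stood at 22.6% against 16.7% (odds ratio 1.46, adjusted exact p = 0.646). Without replicate 1, in the list of replicate 2 alone, none of the 17 passed, and the odds ratios were 1.19 for AATAAA and 0.967 for GAGAGA. Without replicate 2 the run of A did not pass (odds ratio 1.22, adjusted exact p = 0.0875). In regions below the median GC content the odds ratio of AATAAA was 1.32, and in those at or above it 1.5; with fewer regions in each, neither passed (adjusted exact p = 0.144 and 0.135), nor did any other of the features tested there.

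The GAGA repeat had a strand in 3′ UTRs. Of the 243 3′ UTR regions, 3.70% held GAGAGA on the host strand and 19.3% on the other strand, and of the 581 lower-ranked ones 2.41% and 14.8%. In coding exons the order was the other way, with 7.14% on the host strand and 5.16% on the other in the 504 regions, against 6.85% and 3.97% in the lower-ranked ones. The strand values are a description with no test. AATAAA stood on the host strand in 30.5% of the 243 3′ UTR regions and on the other strand in 41.6%. In the 581 lower-ranked ones the shares were similar, 26.9% and 43.0%.

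For motifs that nuclear receptors are known to bind, no difference from the lower-ranked exon regions passed the test. AGGTCA, the core motif of many receptors, occurred in 4.06% (interval 2.78 to 5.72%) of windows, against 4.67% (interval 3.999 to 5.42%) of the lower-ranked ones (odds ratio 0.865, adjusted p = 0.613, Fisher's exact test). Its variant AAGTCA occurred in 8.91% against 9.17% (adjusted exact p = 0.934) and the shorter GGTCA, which AGGTCA contains, in 13.9% against 15.7% (adjusted exact p = 0.423). Both strands were searched. The binding preference of NHR-237 itself was not used here, so the counts say nothing of its own motif. The promoter motif CTGCGTC was found in 8 windows and GCGCGC in 2 (1.05% against 1.77%, adjusted exact p = 0.423, and 0.262% against 0.591%, adjusted exact p = 0.579). Over all autosomal regions, promoter windows included, CTGCGTC occurred in 2.79% and GCGCGC in 2.03%, with no test. There AGGTCA occurred in 4.96%, AAGTCA in 8.41% and GGTCA in 16.4%. A stretch of 50 bases that recurs elsewhere in the genome was found in 4 of the 763 windows, 0.524% against 1.49% (adjusted exact p = 0.0977). By another measure the order was the other way. The summit base was masked in the RefSeq sequence, as repeated or low-complexity, in 17.8% against 12.5%, with no test. By class this was 8.73% against 6.78% in coding exons, 37.0% against 38.7% in 3′ UTRs and 12.5% against 36.4% in 5′ UTRs.

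The signal of the 763 regions chose them and is given as a description. It ran from 12.7 to 67.7 with a median of 14.7, and from 6.97 to 12.7 with a median of 8.76 in the lower-ranked exon regions. The median was 15.4 in 3′ UTRs, 14.5 in coding exons and 14.8 in 5′ UTRs. The deposited −log10 q had a median of 0.481 (0.281 to 2.07) in the 763 regions, against 0.0665 in the lower-ranked exon regions. Only 72 of the 763 (9.44%) had a deposited q of 0.05 or less, and none of the lower-ranked ones did, so most of the 763 did not reach that level. The authors' own final set, deposited as IDR thresholded peaks, holds 0.885% of the pooled regions. Of the 763 regions the 8 of the highest signal were IDR peaks (1.05%), 5 of them in 3′ UTRs, and none of the lower-ranked exon regions was. The weakest 3 of the 763, Y17G7B.21 (12.693), swsn-1 (12.6902) and ugt-67 (12.6899), differed from the first 3 left out, usp-4 (12.6865), unc-83 (12.6851) and lin-13 (12.6848), by less than 0.01 in signal, so the threshold separates like regions.

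The strongest exon region lay in the 5′ UTR of C34C12.2 (III, 3456230 to 3456569, plus strand), with a pooled signal of 67.7 at rank 55. It had a signal of 43.7 in replicate 1 (rank 59) and 22.4 in replicate 2 (rank 74), so it was near the top of both lists. Signal scales differ between lists, and replicates are compared by rank below. The summit was 2614 bp downstream of the nearest 5′ end of that gene. The 15 strongest exon regions comprised 9 in 3′ UTRs, 4 in coding exons and 2 in 5′ UTRs.

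The 3′ UTR regions of the highest signal were those at suro-1, zip-2 and T28C6.5. suro-1 (I, 7872093 to 7872432, minus strand) had a pooled signal of 44.5 and ranked 69 in replicate 1 and 355 in replicate 2. zip-2 (III, 835595 to 835934, plus strand), which encodes a bZIP transcription factor of the pathogen response, had 41.8 and ranked 167 and 68, with the summit 43 bp from the 3′ end. The gene dos-3 also lies over that summit, so the host is uncertain. T28C6.5 (IV, 8822642 to 8822981, plus strand) had 38.3 and ranked 341 and 63. All 3 were thus in the first 500 ranks of both replicates.

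The replicates did not rank all of the strongest regions alike. C07A9.9 (III, 9663154 to 9663493, minus strand), an IDR peak, had a pooled signal of 31.8 and ranked 245 in replicate 1 but 26606 in replicate 2. pgal-1 (I, 4911655 to 4911994, plus strand), which encodes an enzyme of neuropeptide amidation, had 31.3 and ranked 216 and 93, with the summit 4 bp from the 3′ end and F21F3.6 over it as well. nhr-85 (I, 13055587 to 13055926, minus strand), a nuclear receptor gene of the developmental clock, had 30.6 and ranked 302 and 418, again with a second gene, npr-14, over the summit. lin-29 (II, 11917537 to 11917876, minus strand), which encodes the zinc-finger factor of the larva-to-adult switch, had 27.7 and ranked 1505 and 1006. With C34C12.2, suro-1, zip-2, T28C6.5, nhr-85 and the coding-exon region at T06E4.5, pgal-1 was in the first 500 ranks of both lists, and C07A9.9 was not.

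At lin-42 and mnk-1 the region of the highest pooled signal ranked high in replicate 1 only. lin-42, the worm homolog of Period and a timer of molting, had 3 of the 763 regions. Its strongest (II, 1233655 to 1233994, minus strand, 3′ UTR, pooled signal 29.2) and the next (II, 1233882 to 1234221, pooled signal 24.9) overlapped each other and shared 1 region of replicate 1 at rank 81 and 1 of replicate 2 at rank 11279. The third, in a coding exon (II, 1239402 to 1239741, signal 16.4), ranked 12201 in replicate 1 and 1064 in replicate 2. mnk-1, which encodes a kinase acting downstream of MAP kinases, also had 3, all in its 1936 bp 3′ UTR. Its strongest (II, 10543735 to 10544074, minus strand, signal 28.2) ranked 114 in replicate 1 and overlapped no region of replicate 2, whereas the weakest of the 3 (signal 21.5) ranked 6318 in replicate 1 and 134 in replicate 2.

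Coding exons held 4 of the 15 strongest regions. gldr-2 (I, 15040196 to 15040535, plus strand) had a pooled signal of 45.1 and ranked 72 in replicate 1 and 1779 in replicate 2, with its summit in coding sequence 121 bp from the 3′ end. T06E4.5 (V, 9631697 to 9632036, plus strand) had 36.9 and ranked 188 and 272. F32D8.11 (V, 10888071 to 10888410, minus strand) had 28.2 and ranked 136 and 10627, with F32D8.12 over the summit, and F53B2.8 (IV, 12526949 to 12527288, minus strand) had 27.7 and ranked 529 and 2678. egl-30, which encodes the Gq alpha subunit of neuronal and muscle signalling, had the other 5′ UTR region (I, 1836744 to 1837083, plus strand, signal 26.7, ranks 481 and 1415). Of these 5, T06E4.5 alone was within the first 1000 ranks of both replicates. The summit lay 263 bp downstream of a host 5′ end in egl-30 and 277 bp in F53B2.8, near the 200 bp limit of the promoter window. Both regions therefore reach into that window. A promoter window of egl-30 also held a region at rank 182 of the pooled list.

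**Figure D4:**
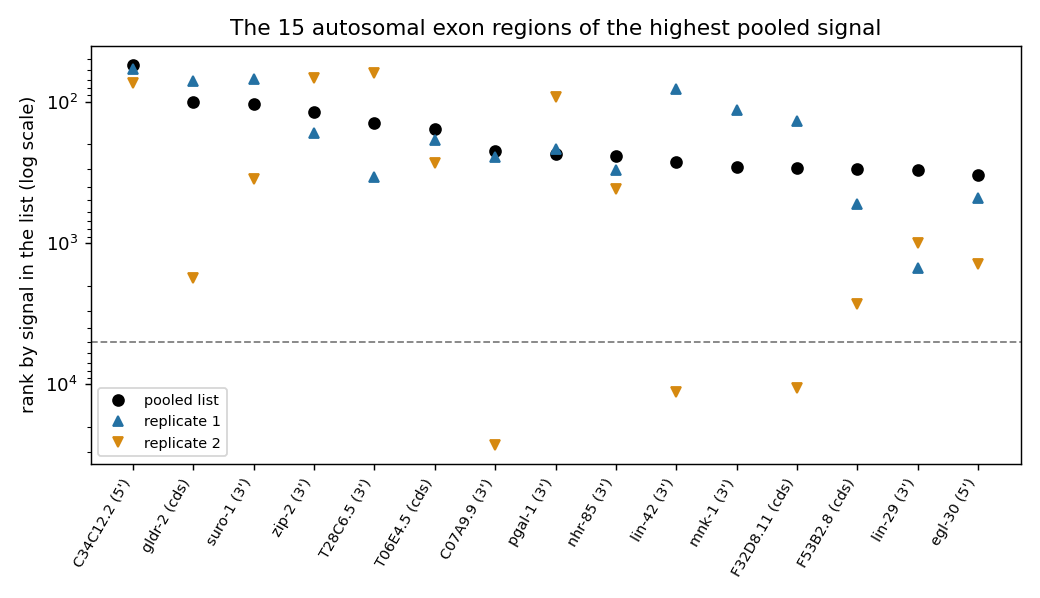
The 15 autosomal exon regions of the highest pooled signal are named by host gene and class (3′ and 5′ for UTRs, cds for coding exons), with rank by signal on a log scale that has rank 1 at the top. Black circles give the pooled list, blue triangles replicate 1 and orange triangles replicate 2, and the dashed line marks rank 5000; C07A9.9, lin-42 and F32D8.11 fall past it in replicate 2, and mnk-1 has no orange triangle.

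Replicate 1 held more of the 763 regions than replicate 2. Each replicate list ends at 30000 regions and includes background by design. An overlap of at least 1 bp was found for 675 (88.5%, interval 86.0 to 90.6%) in replicate 1 and 523 (68.5%, interval 65.1 to 71.8%) in replicate 2. The lower-ranked exon regions had 61.6% and 47.9%. Within the first 5000 ranks of replicate 1 there were 48.1% of the 763 regions, against 11.4% of the lower-ranked ones, and within those of replicate 2 there were 30.4%, against 11.2%. Both first 5000s held 74 of the 763 (9.70%) and 29 of the 3555 (0.816%). Neither replicate list held 12 of the 763. The pooled list contains the reads of both replicates, so these shares are no independent test.

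Regions in 3′ UTRs were found in both replicates' first 5000 more often than coding ones, as a description. Of the 74, 45 lay in 3′ UTRs, 26 in coding exons and 3 in 5′ UTRs, which is 18.5% of the 243 3′ UTR regions and 5.16% of the 504 coding ones. In replicate 1 the first 5000 ranks held 62.6% of 3′ UTR regions and 40.5% of coding ones, and in replicate 2 34.98% and 28.4%. The pooled signal, from the same reads, was also higher in 3′ UTRs, with a median rank of 2310 against 2970.5 in coding exons. Of the 74, 57 were among the strongest 191 of the 763 (ranks 55 to 1548), of which 46.1% lay in 3′ UTRs. Whether the classes differ at equal signal was not tested. The first 1000 ranks of both replicates held 6 of the lower-ranked exon regions, 4 of them in 3′ UTRs. They held 15 of the 763, 12 of them in 3′ UTRs, and these 15 rested on 13 distinct regions of replicate 1. Among the 12, chosen here after their values were seen, are hsp-1, which encodes an Hsp70 chaperone, and nra-1. They are convergent neighbours that share 1 region of each replicate, at rank 363 in replicate 1 and 914 in replicate 2.

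**Figure D5:**
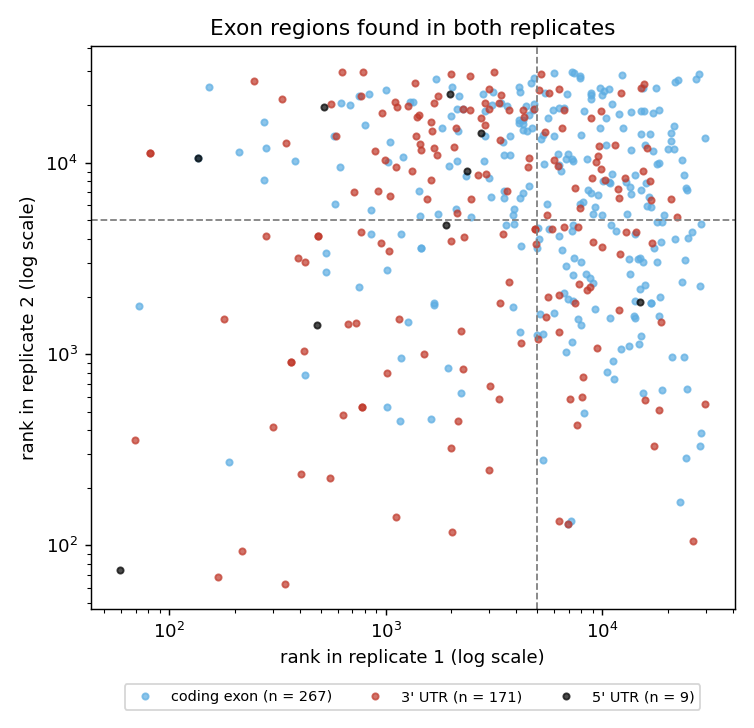
Each point is 1 of the 447 exon regions found in both replicate lists, by its rank in replicate 1 (x axis) and replicate 2 (y axis), both on log scales, with blue for coding exons, red for 3′ UTRs and black for 5′ UTRs. Dashed lines mark rank 5000, and the 74 points in the lower left corner are in the first 5000 ranks of both.

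The 763 regions had 707 host genes, and most genes had 1. There were 44 genes with more than 1, which held 100 regions. mlt-11, which encodes a protease inhibitor needed for molting, had 4, with signals of 23.3 in the 3′ UTR and 14.1, 13.3 and 12.7 in coding exons. Ranks of those 4 did not match between replicates: the 3′ UTR region ranked 29748 in replicate 1 and 546 in replicate 2. Besides lin-42, mnk-1 and egl-30, the genes with 3 were W06H8.6, dmd-7, gcy-28, mbk-2, metr-1, miz-1 and sup-37. Genes with more than 1 region had more exon sequence, with a median of 3425 bp, against 1947 bp for all hosts of the 763 regions. Of the 763, 27 overlapped another of them, so neighbouring regions are not separate observations.

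Host genes of the 763 regions had a promoter region in the first 5000 ranks more often than hosts of lower-ranked exon regions, as a description. This held for 145 of 707 genes (20.5%) and 388 of 2917 genes (13.3%). Genes that host both kinds of exon region are in both sets, which together hold 3376 distinct genes. A promoter region of any rank was listed for 55.2% and 44.4%. For most of these genes the exon region was thus the only one of the 2 kinds in the first 5000 ranks. The distance to the nearest 5′ end of any gene had a median of 1511 bp, against 1435 bp. In worms trans-splicing removes the first bases of many transcripts, so some annotated starts lie downstream of the true ones, and whether unannotated promoters account for exon regions was not tested.

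Of all exon regions 17.7% were among the 763, and gene lists are set against that share and against 20.9% of host genes, as counts with no test. Cuticle collagens, which form the larval exoskeleton, had 12 of 36 exon regions among them, led by col-96 (signal 25.4, 3′ UTR), col-131 (24.1, 3′ UTR) and col-151 (22.2, coding). Their median signal over all exon regions was 10.5, against 9.34 for all hosts. Extracellular matrix and attachment genes had 7 of 34, led by mua-3 (20.8), unc-52, which encodes perlecan (17.8), and the laminin gene epi-1 (17.3). By host gene this was 7 of 11. Chaperones had 6 of 14, with hsp-1 (26.2), dnj-29 (20.6) and enpl-1 (19.7). Ribosomal proteins had 3 of 6, rpl-35 (20.7), rps-13 (17.9) and rps-15 (16.96), and vacuolar ATPase genes 4 of 12, led by vha-19 (16.9).

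Of the other lists of broadly used genes and of yolk, several had none or 1 among the 763. Translation factors had 0 of 9, nuclear genes of the respiratory chain 0 of 10 and vitellogenins 0 of 1, and histone genes had no exon region outside promoter windows. Proteasome genes had 1 of 9, pbs-1 (14.4). The list of transcription genes had 1 of 19, the RNA polymerase II gene ama-1 (14.6), and the list of RNA splicing and binding genes 5 of 20, led by the SR protein gene rsp-8 (21.6). Chromatin and dosage compensation genes had 4 of 29, led by dpy-21 (18.3), tubulins 2 of 5, and genes of kinesin, dynein and spectrin 3 of 16, led by the kinesin gene unc-116 (19.2). With counts this small, none sets a list apart.

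Among genes of muscle, nerve and the germline, the counts lay on both sides of the 17.7%. Muscle and sarcomere genes had 3 of 31, the giant proteins' genes unc-22 (16.0), ttn-1 (13.9) and unc-89 (12.8). By host gene this was 3 of 13 (23.1%), above the 20.9% of all host genes. Ion channel and neurotransmitter receptor genes had 9 of 42, led by the potassium channel gene twk-13 (23.3). Neuropeptide genes had 2 of 9, nlp-24 (24.6) and nlp-8 (14.1), both in 3′ UTRs. Membrane transporters had 3 of 36, led by glt-6 (18.8), and germline genes 2 of 25, car-1 (14.7) and pie-1 (13.9).

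Among large gene families, the counts of chemoreceptors, C-type lectins and F-box genes lay below the share of all exon regions. Chemoreceptors had 19 of 153 (12.4%), 18 of them in coding exons and none in a 3′ UTR, led by srsx-27 (26.2), str-263 (17.5) and sre-48 (16.8). C-type lectins had 1 of 41, clec-52 (15.6), and F-box, MATH and BTB genes 6 of 47, led by math-33 (24.1). The nuclear hormone receptor family, to which NHR-237 belongs, had 12 of 66 (18.2%), 6 in 3′ UTRs and 6 in coding exons, led by nhr-85 (30.6), nhr-46 (25.8) and nhr-19 (20.2). By host gene this was 10 of 54 (18.5%), below the 20.9% of all host genes.

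None of the 763 regions lay within 20 kb of nhr-237 or unc-119, the loci behind the transgene. Whether the transgene affects the signal of regions elsewhere was not tested. nhr-237 (V, 1625189 to 1626820) had 1 pooled region within 20 kb, at rank 8893, and no exon region there. unc-119 (III, 10902641 to 10908935) had 17 pooled regions within 20 kb, the best at rank 2981. Of these 17, 3 lay in the gene itself, none of the 3 an exon region. The 17 included 2 exon regions, and none of them was among the 763.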

How the data were processed

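ChIP-seq of NHR-237 was deposited for 2 biological replicates in 1 group. Per the file headers, the authors' lists are peaks and background regions in narrowPeak form, on ce11, made as input for IDR, from each replicate and from both alignments together, this pooled list also from 1 further file whose content is not stated. The signal of each region and its −log10 q-value are the authors' deposited values. Not given in the sources used here are the aligner, the caller, the IDR threshold and the scale of the signal. The ce10 lists were not used here. Summits were placed on the Ensembl release 115 annotation and the RefSeq sequence of WBcel235, with the stop codon counted as coding, then 5′ UTR, then 3′ UTR. Fisher's exact test (scipy 1.17.1, two-sided, Benjamini-Hochberg within 14 position features, 17 sequence features or 5 autosomes, threshold 0.05) compared the 763 regions with the lower-ranked exon regions. Intervals are exact (Clopper-Pearson) at 95% and cover counting error only. On simulated data all 40 features given an odds ratio of 2 passed this test, and 0 of 160 others. The simulated regions were independent, and no rare feature or smaller odds ratio was tried. The simulation therefore does not show how the test performs for those or for overlapping regions. The named genes are the 15 strongest regions, all IDR peaks, 3 on each side of the threshold, the strongest of each autosome and class, up to 3 per gene list and the genes with most regions; others are named after their values were seen. The regions, features and 24 gene lists were chosen with earlier results of these data known.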

Additional observations from a re-analysis of the deposited data

How the results depend on the processing

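The 3′ UTR and coding-exon differences passed the exact test in the same direction in all 11 alternatives that could change them, with odds ratios of 1.66 to 3.02 and 0.334 to 0.623. With a rank threshold of 2500 or 10000 there were 337 or 1531 regions, and at 10000, 2 sequence features passed. Coding-exon summits alone gave 2 position features and 1 sequence feature, with odds ratios turned to 0.915 for exons of 500 bp or more and 1.08 for splice boundaries, neither past the test. 3′ UTR summits alone, a setting chosen after seeing the data, gave 0 of either kind: the last exon had an odds ratio of 1.83, the middle of the chromosome 1.43 and the 300 bp before the 3′ end 0.864. That class has 243 regions and lies mostly in last exons by construction. With GC content below or at and above the median, 0 and 0 sequence features passed. Applying the rule to 1 replicate's list left 0 to 5 sequence features, 0 to 2 chromosomes, and odds ratios of 0.967 to 1.43 for GAGAGA and 1.03 to 1.26 for chromosome III. The count of 0 sequence features, the 2 chromosomes and the odds ratios of 0.967 and 1.26 came without replicate 1, from the list of replicate 2 alone; the cause was not tested. Of 577 values recomputed, 448 kept their direction and side of the threshold, or a count within 1.5 times the reported one, 41 no longer passed, 8 passed newly, 11 moved further and 69 turned direction. Of these 69, 64 passed the test in neither setting; 4 had passed as reported, namely GAGAGA without replicate 1 and the 3 position features given above for 1 class alone, and chromosome III passed newly without replicate 1. The other turned odds ratios follow. A rank threshold of 2500 gave 1.13 for GCGCGC, 1.02 for TGATAA, 0.973 for TTTCAG, 1.02 for CAGCTG and 0.904 for GGAGGA. A threshold of 10000 gave 1.12 for CTGCGTC, 1.08 for AGGTCA, 1.05 for GGTCA, 1.03 for TGATAA, 0.915 for TTTCAG, 1.03 for chromosome III and 0.985 for IV. The narrower promoter window gave 1.09 for GCGCGC, 0.997 for TTTCAG and 0.959 for chromosome V, and the wider one 1.06 for AAGTCA, 1.01 for TGATAA, 0.99 for TTTCAG, 1.02 for chromosome II and 0.96 for IV. With 1 region per host gene, the first exon had 0.87 and chromosome V 0.949, and without regions near non-coding RNA genes the first exon had 0.979. TTTCAG had 0.976 against ranks above 10000, 0.996 without repeated 50-mers, 0.986 without IDR peaks, 0.905 in the 170 bp window, and 0.995 and 0.902 below and at or above the median GC. Coding-exon summits alone gave 1.01 for 4 or more CG dinucleotides, 1.03 for AGGTCA, 1.07 for chromosome II and 0.971 for IV. 3′ UTR summits alone gave 1.19 for the 1000 bp after a host 5′ end, 1.31 for AAGTCA, 1.76 for CAGCTG and 0.962 for chromosome V. AGGTCA had 1.15 in the 50 bp window and 1.09 at the higher GC, AAGTCA 1.27 in the 50 bp window and 1.01 at the lower GC, CTGCGTC 1.09 in the 170 bp window, and 4 or more CG dinucleotides 1.1 at the higher GC. With 1 replicate's list, the ranges were 0.98 to 0.992 for 5′ UTRs, 0.868 to 1.09 for first exons, 0.906 to 0.978 for single-exon hosts, 0.834 to 1.11 for CTGCGTC, 1.21 to 2.29 for GCGCGC, 0.925 to 1.29 for AGGTCA, 1.07 to 1.09 for AAGTCA, 0.968 to 1.13 for TGATAA, 0.887 to 1.07 for TTTCAG, 0.662 to 1.11 for CACGTG, 0.927 to 1.05 for GGAGGA, 0.862 to 1.21 for CAACAA, 0.845 to 1.03 for chromosome I, 0.784 to 1.13 for II, 0.858 to 1.01 for IV and 0.956 to 1.14 for V. Taking the middle of the region for the summit gave identical values and is not counted. The deposited lists run down to a −log10 q of 0.0176 among exon regions, so most of them are not told from background by the authors' own q. No paired analysis was possible because there is 1 group.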
